A study of Homo sapiens with 18 samples.

Results

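The BCL2 family was examined here through 10 of its members, *BCL2*, *BCL2L1*, *MCL1*, *BAX*, *BAK1*, *BBC3*, *PMAIP1*, *BCL2L11*, *BID* and *BAD*, taken by symbol from the 28277 genes of the deposited count table. All 10 were found, and all 10 passed the filter on low counts that left 14938 genes for testing. The libraries are RNA-seq of OVCAR3-KRAB, the established ovarian cancer cell line OVCAR3 made to express dCas9-KRAB, a Cas9 without nuclease activity joined to a repressor domain. Clonal cells carried sgControl, a negative control guide RNA directed at the Gal4 promoter, or 1 of the guides sgXIST7 and sgXIST9, which bring the repressor to the *XIST* promoter (XIST KD). Cells with each guide, called a clone type here, were grown in normoxia or held at 1% oxygen during 24 h (hypoxia), with 3 libraries in each of the 6 groups and 18 in all. All groups share the dCas9-KRAB transgene, brought in by lentivirus, and DMEM with serum, and the oxygen level of the normoxia cultures is not given in the sources used here. Cells with a given guide are monoclonal, the KD clones were picked for low *XIST*, and how many clones or cultures stand behind the 3 libraries of a group is not given, so that differences between guides and between clones cannot be told apart and the p-values measure only the spread between these libraries.

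BCL2 proteins decide whether the outer membrane of mitochondria stays intact. The pro-survival members (BCL2, BCL-xL from *BCL2L1*, MCL1) hold the effectors BAX and BAK in check, and the BH3-only members (PUMA from *BBC3*, NOXA from *PMAIP1*, BIM from *BCL2L11*, BID, BAD) occupy the pro-survival proteins or activate the effectors, after which cytochrome c leaves the mitochondria and caspases are activated. Ovarian cancer cells often depend on MCL1 and BCL-xL, several members are regulated by p53, by stress-responsive transcription factors or by hypoxia, and much of their control acts on the protein, which RNA-seq does not measure.

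The stretches upstream of 3 members are shown because these genes include the effector and the BH3-only gene that were called under hypoxia and a further BH3-only gene, *PMAIP1*, described as hypoxia-responsive. Each window holds the 250 bases before the RefSeq start of the gene (GRCh38.p14), and capitals mark ACGTG or GCGTG on either strand (CACGT or CACGC when read on the printed strand), the core letters of the element that hypoxia-inducible factors bind.
BBC3 (chr19:47232668-47232917, minus strand): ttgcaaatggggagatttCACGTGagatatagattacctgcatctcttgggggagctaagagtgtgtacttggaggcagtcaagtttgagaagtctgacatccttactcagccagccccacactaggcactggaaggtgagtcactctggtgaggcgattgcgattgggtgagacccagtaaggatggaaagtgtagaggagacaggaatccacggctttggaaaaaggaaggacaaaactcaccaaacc
PMAIP1 (chr18:59899746-59899995, plus strand): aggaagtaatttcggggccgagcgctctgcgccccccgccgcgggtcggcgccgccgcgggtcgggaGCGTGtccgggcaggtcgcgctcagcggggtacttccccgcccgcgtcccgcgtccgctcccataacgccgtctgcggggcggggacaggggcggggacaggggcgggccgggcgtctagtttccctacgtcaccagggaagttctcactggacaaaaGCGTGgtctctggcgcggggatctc
BAK1 (chr6:33580277-33580526, minus strand): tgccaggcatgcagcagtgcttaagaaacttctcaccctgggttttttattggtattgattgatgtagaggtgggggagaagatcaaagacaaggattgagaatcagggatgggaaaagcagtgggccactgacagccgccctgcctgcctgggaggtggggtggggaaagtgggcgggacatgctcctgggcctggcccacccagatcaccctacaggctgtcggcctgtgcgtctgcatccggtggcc
The *BBC3* window holds 1 palindromic run, counted on both strands at −232 and −231 with overlap, the *PMAIP1* window holds 2 matches, at −183 and −25 from the start, and the *BAK1* window holds none. Of 35116 windows of this length in the RefSeq table, 43.2% hold such letters, and so did 11 of the 15 windows of the 9 members that have one. Some members have several windows, some of them overlapping, and 7 members had a match in at least 1. This count was not compared with other genes. Matches lay upstream of members that rose and of members that fell in hypoxia. *BAX*, *BAD* and *BCL2L1* fell in at least 1 clone type, and *BAX* had 9 matches, counted with overlap. Each *BAD* window and 1 *BCL2L1* window had 1, and the *BCL2* window had none. *BCL2L11*, which rose in sgControl and sgXIST9, had 2. *BID*, without a detected change, had matches in most of its windows. The letters are a description of the sequence, and binding was not measured.

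The libraries held 11794375 to 24906936 counts, with a median of 17629433. The targeted gene *XIST* had 1589 to 11209 counts in the sgControl libraries, 0 to 5 in sgXIST7 and 357 to 1009 in sgXIST9, and the XIST KD clones had been picked for low *XIST*. In sgControl *XIST* itself fell in hypoxia, from 4900, 11209 and 4213 counts to 1974, 5014 and 1589 (edgeR log2 fold change −1.48, adjusted p = 0.0059). The summed level of 9 hypoxia-induced genes (*CA9*, *VEGFA*, *LDHA* and others), most of it *LDHA* (1026 to 4530 CPM), was 1276 to 1755 CPM in normoxia and 4107 to 6281 CPM in hypoxia, where CPM is the count scaled to a common library size with TMM factors. Of these 9 genes, 7, 8 and 8 were up-regulated (edgeR adjusted p under 0.01 and a change above 2-fold) in sgControl, sgXIST7 and sgXIST9. *ADM* had means of 287 and 324 CPM in normoxia and hypoxia in sgControl (adjusted p = 0.57), but 8.14 and 188 CPM in sgXIST7 and 7 and 107 CPM in sgXIST9. *EGLN3* passed an adjusted p of 0.05 in sgControl (adjusted p = 0.026) but not in sgXIST7 (means of 1.54 and 0.997 CPM, adjusted p = 0.36) or sgXIST9 (adjusted p = 0.33). Of 8 markers of serous ovarian epithelium, *EPCAM* and *KRT18* were high (156 to 251 and 129 to 251 CPM), *PAX8* was low (0.828 to 5.94 CPM) and *CDH1*, *KRT7*, *MUC16* and *WT1* were absent or near 0 (at most 2, 3, 4 and 14 counts). *KRT8* was higher in XIST KD cells than in sgControl in normoxia (log2 fold change 1.92 in sgXIST7 and 1.89 in sgXIST9, adjusted p = 1.5e-06 for each). The immune genes *PTPRC* and *CD3E* had at most 1 count, the endothelial genes *PECAM1*, *VWF* and *CDH5* at most 13, *CD68* 10.8 to 55.8 CPM, and the fibroblast genes *COL1A1*, *DCN* and *PDGFRB* summed to 0.813 to 7.12 CPM. *CD68* was down-regulated in hypoxia in sgXIST9, with means of 46.3 and 18.2 CPM (log2 fold change −1.35, adjusted p = 0.00071), and fell in sgControl (−0.75, adjusted p = 0.039). *COL1A1* had a mean of 0.564 CPM in sgControl in normoxia and was up-regulated in sgXIST7 at 2.79 CPM (adjusted p = 0.0017) and in sgXIST9 at 2.25 CPM (adjusted p = 0.0057). *DCN* was at most 1 count in the XIST KD normoxia libraries and at least 2.86- and 2.6-fold lower there than in sgControl. The part of *KRT8*, *CD68*, *COL1A1* and *DCN* in the results on the members was not tested. In sgControl hypoxia, replicate 3 stood apart from the other libraries of its group (Pearson r of log2 CPM 0.964 and 0.953, against 0.987 between the other libraries), with 12042716 counts. Replicate 3 was also the shallowest hypoxia library of the other clone types and correlated less with its group, at 0.9747 and 0.9836 against 0.9866 in sgXIST7 and at 0.98 and 0.967 against 0.9876 in sgXIST9. Values without such a library are given for part of the members and comparisons they move, and the fits that left out 1 library are those of each of the 18 in turn.

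In sgControl cells in normoxia, *MCL1* was the most abundant member per length of transcript, at 78.8 ± 6.75 CPM per kb (SD, n = 3). It was followed by *BAX* at 29.8 ± 2.11, *BAD* at 25.5 ± 2.57, *BID* at 12.9 ± 1.54, *BCL2L1* at 11 ± 0.467 and *BAK1* at 10.3 ± 0.841 CPM per kb. *BCL2L11* at 3.88 ± 0.754, *PMAIP1* at 3.55 ± 0.106 and *BBC3* at 2.7 ± 0.16 CPM per kb were lower, and *BCL2* at 0.087 ± 0.03 CPM per kb was the lowest. The ranges of *BAX* and *BAD* overlapped, as did those of *BID* and *BCL2L1*, of *BCL2L1* and *BAK1*, and of *BCL2L11* and *PMAIP1*. *MCL1* stayed first, *BAX* second and *BCL2* last in each of the 6 groups. *MCL1* made up 35.7% to 57.5% of the summed level of the 10 members per kb in the 18 libraries, and *BCL2* made up at most 0.177%.

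**Figure D1:**
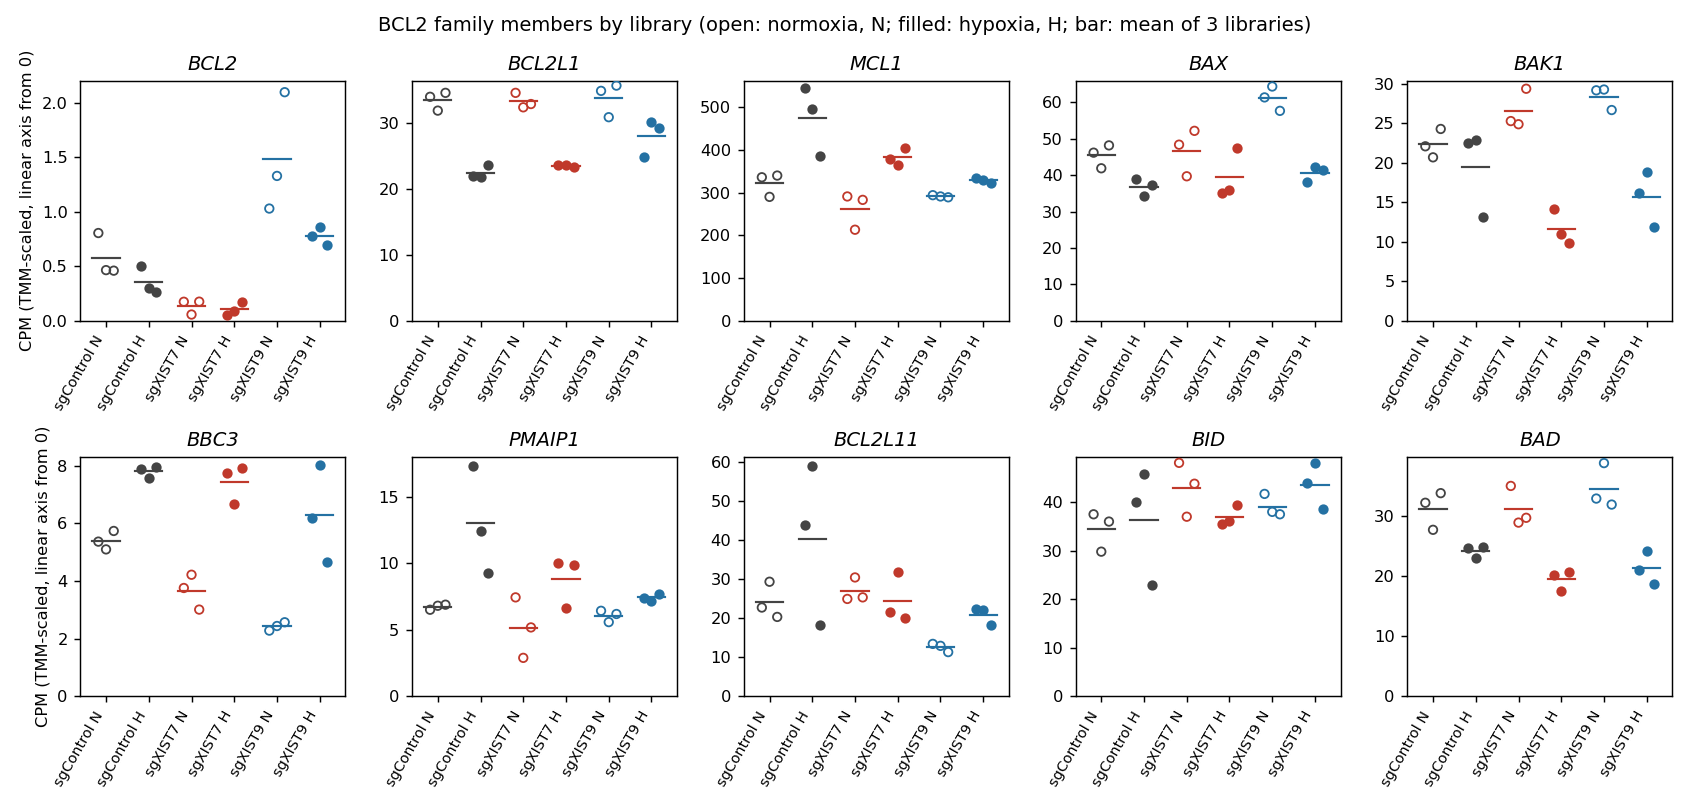
Level of each of the 10 members in each library, as CPM scaled by TMM factors on a linear axis that starts at 0, with open points for normoxia (N), filled points for hypoxia (H) and a bar at the mean of the 3 libraries of a group. *BCL2L1* is lower and *MCL1* and *BBC3* higher in hypoxia in each clone type, *BCL2* is near 0 in sgXIST7, and in sgControl hypoxia 1 library lies low for *BAK1*, *BCL2L11* and *BID*.

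Hypoxia shifted most members, as it did most tested genes, and the shifts of members were mainly under 2-fold. Genes were called up- or down-regulated with an adjusted p under 0.01 and a change above 2-fold, and a smaller shift was counted with an adjusted p under 0.05 at any size (edgeR quasi-likelihood test, 1 fit of the 18 libraries, Benjamini-Hochberg over all tested genes). In sgControl, 0 of 10 members were called against 19.7% of all tested genes, and 6 of 10 passed 0.05 against 51.4%, with 7 members under an unadjusted p of 0.05 and 0 called by DESeq2. In sgXIST7, 2 of 10 were called against 27.3% of all genes, and 6 passed 0.05 against 59.0%. In sgXIST9, 1 of 10 was called against 23.3%, and 7 passed 0.05 against 55.3%. The shares of called members were thus below those of all genes, and the shares past 0.05 were near or above them. The median log2 fold change of the 10 members was −0.05, −0.23 and −0.05 in sgControl, sgXIST7 and sgXIST9, and that of all genes was 0.02, 0.01 and 0.09.

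Among the pro-survival members, *BCL2L1* (chr20:31664452-31723963, minus strand, hg38), which encodes BCL-xL, fell in each clone type. In sgControl it was at 34, 31.9 and 34.6 CPM in the normoxia libraries and at 21.9, 21.8 and 23.7 CPM in hypoxia. In sgXIST7 the values were 34.6, 32.4 and 32.9 CPM against 23.6, 23.6 and 23.4 CPM, and in sgXIST9 34.9, 30.9 and 35.7 CPM against 24.9, 30.2 and 29.2 CPM. The hypoxia libraries were all below the normoxia libraries in each clone type. The log2 fold change was −0.58 (SE 0.10, adjusted p = 0.00016) in sgControl, −0.50 (SE 0.10, adjusted p = 0.00039) in sgXIST7 and −0.27 (SE 0.10, adjusted p = 0.03) in sgXIST9. The sgXIST9 value did not pass 0.05 in 3 of the fits that left out 1 library (adjusted p up to 0.18). Of the antisense gene *ABALON*, whose exons overlap those of *BCL2L1*, 3 to 14 counts were seen.

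*MCL1* (chr1:150574551-150579738, minus strand), which encodes a short-lived pro-survival protein, moved the other way. It was at 336, 290 and 340 CPM in sgControl in normoxia and at 545, 496 and 386 CPM in hypoxia. In sgXIST7 it was at 291, 213 and 283 CPM against 379, 364 and 404 CPM. In sgXIST9 the libraries differed little, with 294, 291 and 289 CPM against 334, 330 and 323 CPM. The hypoxia libraries were all above the normoxia libraries in each clone type, and the change passed 0.05 in sgControl (log2 fold change 0.56, SE 0.13, adjusted p = 0.0015) and in sgXIST7 (0.54, SE 0.13, adjusted p = 0.0015) but not in sgXIST9 (0.17, SE 0.13, adjusted p = 0.26). The difference between the responses of sgXIST9 and sgControl had a log2 value of −0.39 (SE 0.18, adjusted p = 0.22), and of −0.52 (adjusted p = 0.031) without sgControl hypoxia replicate 3. *ADAMTSL4-AS1*, which overlaps *MCL1* exons on the same strand, had 28 to 69 counts. Of 5 genes of MCL1 protein turnover (ubiquitin ligases and a deubiquitinase), 0 were called in sgControl, sgXIST7 or sgXIST9, against 19.7%, 27.3% and 23.3% of all genes, and 1, 2 and 2 passed 0.05, against 51.4%, 59.0% and 55.3%, with 1, 2 and 3 under an unadjusted p of 0.05 and 0 called by DESeq2.

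*BCL2* (chr18:63123346-63319380, minus strand), the founding member, was barely expressed, with 1 to 36 counts a library. Its counts in normoxia and hypoxia were 12, 6 and 8 against 8, 6 and 3 in sgControl, and 23, 25 and 36 against 17, 19 and 11 in sgXIST9. In sgXIST7 they were 4, 1 and 4 against 1, 2 and 2, so that the hypoxia libraries were all at or under 3 counts, the detection limit used here (0.136 to 0.259 CPM in these libraries). It fell in sgXIST9 (log2 fold change −0.91, SE 0.36, adjusted p = 0.039), where the groups did not overlap, and a change was not detectable at this depth in the other clone types. The fall in sgXIST9 did not pass 0.05 with DESeq2 (adjusted p = 0.087) or in 6 of the fits that left out 1 library.

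**Figure D2:**
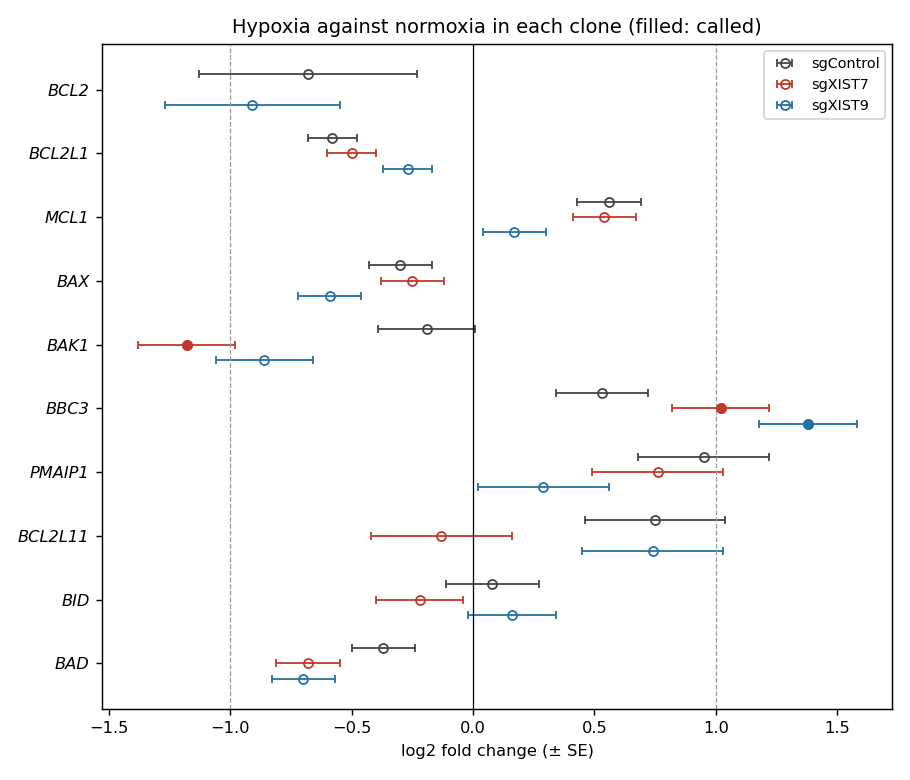
Log2 fold change of hypoxia against normoxia for the 10 members in each clone type, with bars for ± SE, filled points for called members and dashed lines at a 2-fold change. *BCL2L1* and *BAD* lie below 0 and *BBC3* above 0 in all 3 clone types, while *BAK1* lies at −0.19 in sgControl and at −1.18 and −0.86 in sgXIST7 and sgXIST9; *BCL2* in sgXIST7, with a group at the detection limit, is not drawn.

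Of the effectors, *BAK1* (chr6:33572552-33580276, minus strand), which encodes the pore-forming protein BAK, was down-regulated in sgXIST7. It was at 25.3, 24.9 and 29.4 CPM in normoxia and at 14.1, 11 and 9.84 CPM in hypoxia, without overlap (log2 fold change −1.18, SE 0.20, adjusted p = 8.9e-05). In sgXIST9 it fell from 29.2, 29.3 and 26.7 CPM to 16.2, 18.9 and 11.9 CPM (log2 fold change −0.86, SE 0.20, adjusted p = 0.0015). In sgControl the normoxia libraries were at 22.1, 20.7 and 24.3 CPM and the hypoxia libraries at 22.5, 22.9 and 13.1 CPM. These groups overlapped, since 2 hypoxia libraries were within the normoxia range and replicate 3 lay far below it (log2 fold change −0.19, SE 0.20, adjusted p = 0.45). Without that library the value was 0.02 (adjusted p = 0.92).

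The response of *BAK1* to hypoxia differed between sgXIST7 and sgControl, by −0.99 on the log2 scale (SE 0.28, adjusted p = 0.038). Of the 10 members, 1 passed 0.05 in this comparison, against 9.39% of all genes, and 0 were called against 1.52%, with 2 members under an unadjusted p of 0.05 and 0 called by DESeq2. In sgXIST9 the difference in the response of *BAK1* was −0.67 (SE 0.28, adjusted p = 0.18), and 0 of 10 members passed 0.05 or were called, against 5.27% and 1.01% of all genes, with 4 members under an unadjusted p of 0.05 and 0 called by DESeq2. Without sgControl hypoxia replicate 3, the differences were −1.19 (adjusted p = 0.0019) in sgXIST7, where *BAK1* and *BCL2L11* were then called, and −0.87 (adjusted p = 0.016) in sgXIST9. The sgXIST7 difference rested on thin margins, since its adjusted p exceeded 0.05 in 14 of the 18 fits that left out 1 library, with a highest adjusted p of 0.1.

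*BAX* (chr19:48954860-48961798, plus strand), the other effector, fell in sgXIST9, from 61.4, 64.4 and 57.7 CPM to 38.2, 42.3 and 41.4 CPM (log2 fold change −0.59, SE 0.13, adjusted p = 0.0008). In sgControl it was at 46.2, 41.9 and 48.2 CPM and 38.9, 34.3 and 37.4 CPM (log2 fold change −0.30, SE 0.13, adjusted p = 0.056). These groups did not overlap, and the change passed 0.05 in 3 of the fits that left out 1 library (lowest adjusted p 0.031). In sgXIST7 it was at 48.4, 39.7 and 52.2 CPM and 35.1, 36 and 47.6 CPM (log2 fold change −0.25, SE 0.13, adjusted p = 0.1), and the groups overlapped. The sgXIST7 change passed 0.05 without sgXIST7 normoxia replicate 2 or hypoxia replicate 3 (lowest adjusted p 0.014). The differences in the response to sgControl were 0.06 in sgXIST7 (adjusted p = 0.87) and −0.29 in sgXIST9 (adjusted p = 0.38).

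Of the BH3-only members, *BBC3* (chr19:47220824-47232667, minus strand), which encodes the p53 target PUMA, was up-regulated in both XIST KD clone types and rose in sgControl. In sgXIST9 it was at 2.28, 2.44 and 2.57 CPM in normoxia and at 6.2, 8.03 and 4.67 CPM in hypoxia, 2.6-fold higher (log2 fold change 1.38, SE 0.20, adjusted p = 2.2e-05). In sgXIST7 it was at 3.76, 4.22 and 3.01 CPM and 7.74, 6.66 and 7.94 CPM, 2.03-fold higher (log2 fold change 1.02, SE 0.20, adjusted p = 0.00026). In sgControl it was at 5.37, 5.1 and 5.74 CPM and 7.88, 7.59 and 7.97 CPM (log2 fold change 0.53, SE 0.19, adjusted p = 0.031). The groups did not overlap in any clone type, and the hypoxia levels of the 3 clone types lay closer together than their normoxia levels. The difference in response to sgControl was 0.85 in sgXIST9 (SE 0.28, adjusted p = 0.084, and 0.031 without sgXIST9 hypoxia replicate 3) and 0.49 in sgXIST7 (SE 0.27, adjusted p = 0.26). In sgXIST7 the change stood at the 2-fold threshold, with log2 values of 0.90 to 1.13 when libraries were left out and 0.78 under total-count scaling (adjusted p = 0.0032). In sgControl the shift did not pass 0.05 in 5 of the fits that left out 1 library (highest adjusted p 0.09).

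*PMAIP1* (chr18:59899996-59904305, plus strand), which encodes NOXA, a protein that binds MCL1, was at 6.51, 6.81 and 6.89 CPM in sgControl in normoxia and at 17.3, 12.4 and 9.3 CPM in hypoxia. All hypoxia libraries were above all normoxia libraries, with a wide spread (log2 fold change 0.95, SE 0.27, adjusted p = 0.0078). Without replicate 3 the log2 fold change was 1.14 (adjusted p = 0.002), which called the gene, and without replicate 1 the adjusted p was 0.056. In sgXIST7 it was at 7.44, 2.89 and 5.18 CPM and 10, 6.66 and 9.84 CPM (log2 fold change 0.76, SE 0.27, adjusted p = 0.024), with overlap between the groups, and 4 of the fits that left out 1 library did not pass 0.05 (adjusted p up to 0.11). In sgXIST9 it was at 6.43, 5.58 and 6.19 CPM and 7.43, 7.17 and 7.7 CPM (log2 fold change 0.29, SE 0.27, adjusted p = 0.38).

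*BCL2L11* (chr2:111120914-111168445, plus strand), which encodes BIM, rose in sgXIST9, from 13.4, 12.9 and 11.3 CPM to 22.4, 22.1 and 18.2 CPM (log2 fold change 0.74, SE 0.29, adjusted p = 0.041), without overlap. This did not pass 0.05 in 6 of the fits that left out 1 library (adjusted p up to 0.12). In sgControl it was at 22.7, 29.3 and 20.3 CPM in normoxia and at 43.8, 58.9 and 18.3 CPM in hypoxia, so that replicate 3 was below each normoxia library and the others were above them. The log2 fold change was 0.75 (SE 0.29, adjusted p = 0.037) with this library and 1.10 (adjusted p = 0.00017) without it, and when another library was left out it went down to 0.38, with 4 fits not past 0.05 (adjusted p up to 0.28). In sgXIST7 the level was 24.9, 30.4 and 25.3 CPM against 21.6, 31.7 and 19.9 CPM (log2 fold change −0.13, SE 0.29, adjusted p = 0.71). The response in sgXIST7 differed from that in sgControl by −0.89 (SE 0.40, adjusted p = 0.17), and by −1.22 (adjusted p = 0.0036) without sgControl hypoxia replicate 3.

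*BAD* (chr11:64269828-64284704, minus strand), which encodes a BH3-only protein controlled by survival kinases, fell in each clone type. It was at 32.2, 27.7 and 33.8 CPM against 24.6, 23 and 24.9 CPM in sgControl, 35, 28.9 and 29.7 CPM against 20.2, 17.6 and 20.6 CPM in sgXIST7, and 32.9, 38.8 and 31.9 CPM against 21, 24.1 and 18.7 CPM in sgXIST9. The groups did not overlap, and the log2 fold changes were −0.37 (SE 0.13, adjusted p = 0.023), −0.68 (SE 0.13, adjusted p = 0.00021) and −0.70 (SE 0.13, adjusted p = 0.00019). The sgControl value did not pass 0.05 in 4 of the fits that left out 1 library (adjusted p up to 0.09). *GPR137*, antisense to *BAD* with overlapping exons, had 191 to 621 counts, and how overlapping reads were assigned is not given in the sources used here. *BID* (chr22:17734140-17774665, minus strand), whose protein is cut by caspase 8, had means of 34.4 to 43.6 CPM in the 6 groups, and no change passed 0.05 in any of the 11 comparisons. Its log2 fold change in hypoxia was 0.08, −0.22 and 0.16 in sgControl, sgXIST7 and sgXIST9 (adjusted p = 0.74, 0.32 and 0.49), and its lowest library was sgControl hypoxia replicate 3, at 22.9 CPM. Without that library the response of *BID* in sgXIST7 differed from that in sgControl with an adjusted p of 0.037.

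Within a library, the ratio of *MCL1* to *BCL2L1* per kb is free of the scaling between libraries. It was 7.38, 6.8 and 7.33 in sgControl in normoxia and 18.6, 17 and 12.2 in hypoxia. In sgXIST7 it went from 6.27, 4.92 and 6.4 to 12, 11.5 and 12.9, and in sgXIST9 from 6.29, 7.03 and 6.06 to 10, 8.14 and 8.25. The mean ratio was 2.22, 2.07 and 1.36 times higher in hypoxia in the 3 clone types, without overlap, and the two-sided exact permutation test gave p = 0.1 in each, the smallest that 3 libraries against 3 allow. In hypoxia the ratio was lower in sgXIST9 than in sgControl, also without overlap (exact permutation p = 0.1).

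The ratio of *BAX* to *BAK1* was 2.73, 2.27 and 2.53 in sgXIST7 in normoxia and 3.53, 4.65 and 6.88 in hypoxia. In sgXIST9 it was 2.99, 3.13 and 3.07 against 3.35, 3.19 and 4.97. Both pairs of groups did not overlap (exact permutation p = 0.1 in each). In sgControl it was 2.97, 2.89 and 2.83 in normoxia, and 2.46, 2.13 and 4.06 in hypoxia, with overlap (exact permutation p = 1).

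**Figure D3:**
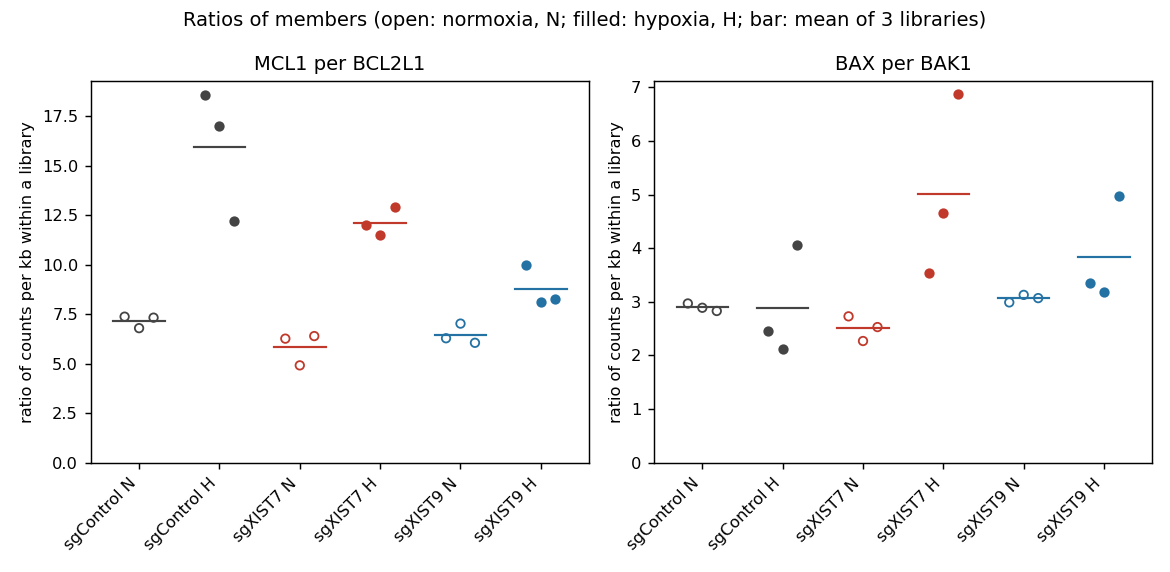
Ratio of counts per kb of *MCL1* to *BCL2L1* and of *BAX* to *BAK1* within each library, on linear axes that start at 0, with open points for normoxia (N), filled points for hypoxia (H) and a bar at the group mean. The *MCL1* to *BCL2L1* ratio is 4.92 to 7.38 in the normoxia libraries and 8.14 to 18.6 in the hypoxia libraries, while the *BAX* to *BAK1* ratio rises without overlap in sgXIST7 and sgXIST9 and overlaps in sgControl.

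In normoxia, the share of members called against sgControl was near that of all genes in both KD clone types. The share past 0.05 was below that of all genes in sgXIST7 and above it in sgXIST9. The differences of *BCL2* from sgControl had opposite signs in the KD clone types. In sgXIST7 against sgControl, 1 of 10 members was called against 7.76% of all genes, and 1 passed 0.05 against 21.6%. In sgXIST9 against sgControl, 1 of 10 was called against 7.70%, and 4 passed 0.05 against 21.6%. Both comparisons share the sgControl libraries. *BCL2* was down-regulated in sgXIST7, with 4, 1 and 4 counts against 12, 6 and 8 in sgControl (log2 fold change −2.0, SE 0.50, adjusted p = 0.007). This call was lost with DESeq2 (adjusted p = 0.017), without the filter on low counts (adjusted p = 0.013) and in 9 of the 18 fits that left out 1 library, in each of the 6 that left out a library of these 2 groups, with adjusted p-values up to 0.05. In sgXIST9 *BCL2* was higher than in sgControl, with 23, 25 and 36 counts (log2 fold change 1.35, SE 0.38, adjusted p = 0.017). This passed 0.05 but was not called, and it was lost in 3 of the fits that left out 1 library, with adjusted p-values up to 0.11.

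In normoxia, all libraries of both KD clone types had less *BBC3* than those of sgControl. In sgXIST9 it was down-regulated (log2 fold change −1.15, SE 0.20, adjusted p = 0.00044), and this call held in each fit that left out 1 library. In sgXIST7 the log2 fold change was −0.56 (SE 0.20, adjusted p = 0.0502), just short of the threshold. With the replicate number as a block, which treats same-numbered libraries as paired, its adjusted p was 0.0498 and 2 members in place of 1 passed 0.05. In sgXIST9, *BCL2L11* was also lower (log2 fold change −0.94, SE 0.29, adjusted p = 0.029) and *BAX* higher (0.43, SE 0.13, adjusted p = 0.021), which did not pass 0.05 in 5 and 4 of the fits that left out 1 library (adjusted p up to 0.12 and 0.098). No change in *BCL2L1* was seen beyond its spread in normoxia, with values of −0.01 in sgXIST7 and 0.01 in sgXIST9 (SE 0.10 each, adjusted p = 0.97 and 0.94), and *MCL1* was at −0.30 and −0.14 (SE 0.13 each, adjusted p = 0.12 and 0.48).

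In hypoxia, 0 of 10 members were called in sgXIST7 against sgControl, against 14.0% of all genes, and 2 passed 0.05 against 42.3%, with 5 under an unadjusted p of 0.05 and 0 called by DESeq2. In sgXIST9, 0 of 10 were called against 9.53%, and 4 passed 0.05 against 29.6%, with 5 under an unadjusted p of 0.05 and 0 called by DESeq2. In a fit of only the hypoxia groups compared (6 libraries in place of 18), 0 members passed 0.05 in either comparison. *BCL2* in sgXIST7 was at the detection limit and at least 1.98-fold lower than in sgControl, taken against 3 counts per library (adjusted p = 0.017, 0.0517 with DESeq2, and up to 0.089 in 3 of the fits that left out 1 library). *BAK1* was lower in sgXIST7 (log2 fold change −0.74, SE 0.20, adjusted p = 0.0075), with 1 overlapping library, sgControl replicate 3, and an adjusted p of 0.073 for *BAK1* in the fit of these groups alone. In sgXIST9, *MCL1* was lower (−0.53, SE 0.13, adjusted p = 0.0045), as were *PMAIP1* (−0.81, SE 0.27, adjusted p = 0.031) and *BCL2L11* (−0.96, SE 0.29, adjusted p = 0.018), and *BCL2L1* was higher (0.32, SE 0.10, adjusted p = 0.022). In the fit of these groups alone the adjusted p-values were 0.069 for *MCL1*, 0.083 for *PMAIP1*, 0.15 for *BCL2L11* and 0.2 for *BCL2L1*. *MCL1* passed 0.05 in each fit that left out 1 library, while *PMAIP1* did not in 5, *BCL2L11* in 3 and *BCL2L1* in 4 (adjusted p up to 0.17, 0.15 and 0.091). Without sgControl hypoxia replicate 3, *BCL2L11* was called in both KD clone types, at −1.07 in sgXIST7 (adjusted p = 0.00027) and −1.30 in sgXIST9 (adjusted p = 6.6e-05). Over the fits that left out another library, *BCL2L11* went to −0.35 in sgXIST7 (highest adjusted p 0.36) and to −0.58 in sgXIST9 (highest adjusted p 0.15). Without sgControl hypoxia replicate 3, 5 of 10 members passed 0.05 in each KD clone type. *MCL1* in sgXIST7 (−0.32, adjusted p = 0.055 in the main fit) passed 0.05 in 2 of the fits that left out 1 library, 1 of them without this replicate (lowest adjusted p 0.0043). The same 2 fits did so for *PMAIP1* in sgXIST7 (lowest adjusted p 0.027). *BAK1* in sgXIST9 passed only without this replicate (adjusted p = 0.021). *BBC3* was at −0.07 in sgXIST7 and −0.30 in sgXIST9 in hypoxia (SE 0.19 each, adjusted p = 0.78 and 0.25).

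**Figure D4:**
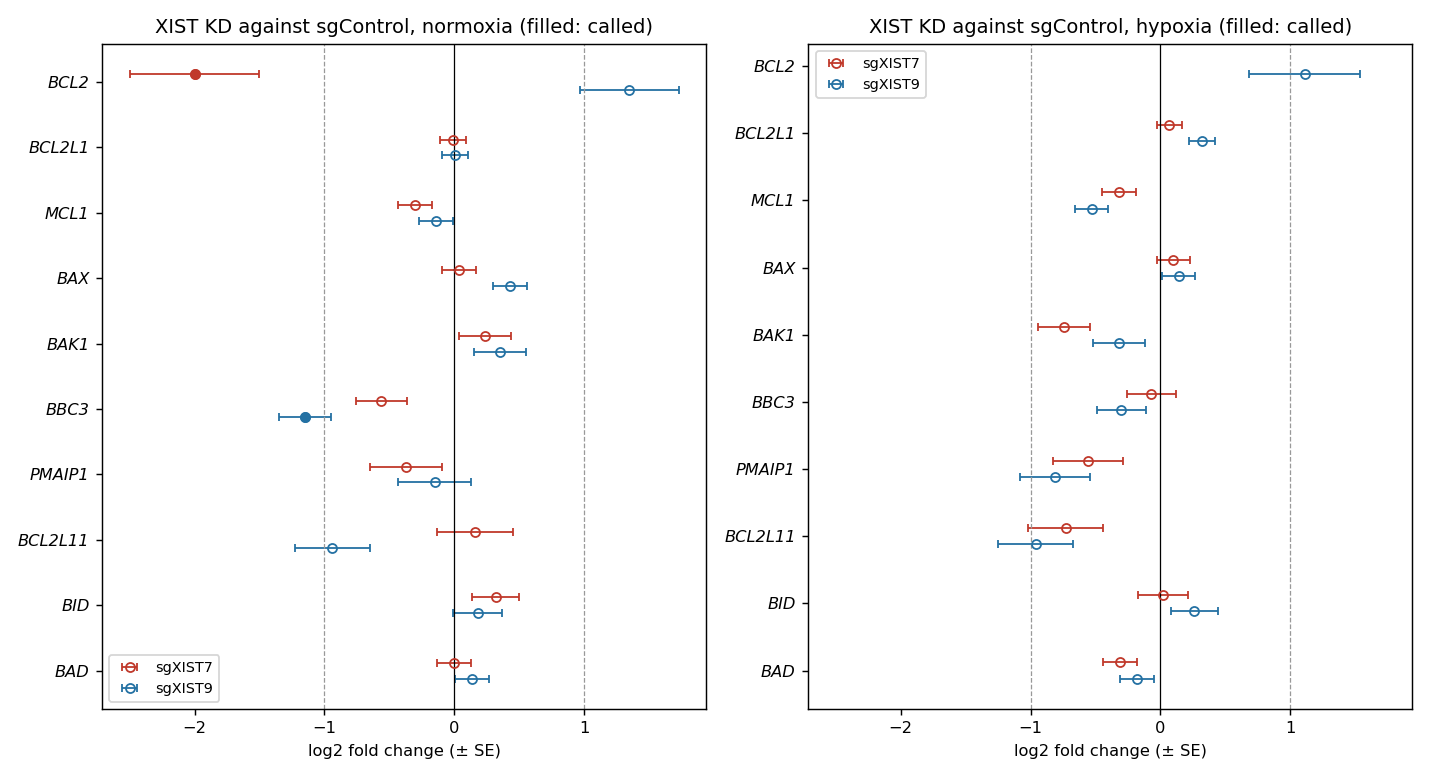
Log2 fold change of sgXIST7 and sgXIST9 against sgControl for the 10 members, in normoxia (left) and hypoxia (right), with bars for ± SE, filled points for called members and dashed lines at a 2-fold change. *BCL2* lies at −2.0 in sgXIST7 and 1.35 in sgXIST9 in normoxia, and *BBC3* at −0.56 and −1.15; *BCL2* in sgXIST7 in hypoxia, at the detection limit, is not drawn.

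The KD clone types differed from each other in *BCL2*. In normoxia, 1 of 10 members was called in sgXIST7 against sgXIST9, against 3.40% of all genes, and 2 passed 0.05 against 8.88%. In hypoxia, 1 was called against 4.46%, and 1 passed 0.05 against 18%. *BCL2* was lower in sgXIST7 in normoxia (log2 fold change −3.34, SE 0.44, adjusted p = 6.2e-05) and at least 4.33-fold lower in hypoxia (adjusted p = 0.00079), without overlap, and both calls held in each fit that left out 1 library. A fit of only the hypoxia groups compared lost the latter call (adjusted p = 0.01). *BCL2L11* was higher in sgXIST7 in normoxia (1.10, SE 0.29, adjusted p = 0.023), and did not pass 0.05 in 4 of the fits that left out 1 library (adjusted p up to 0.099). It passed both thresholds without sgControl hypoxia replicate 2 and without replicate 3, which enter this comparison only through the shared estimate of spread.

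Of 13 other relatives of BCL2 listed, 10 were tested. In hypoxia 6 of these were up-regulated in sgControl, 6 in sgXIST7 and 6 in sgXIST9, and 0, 1 and 1 were down-regulated, beside 19.7%, 27.3% and 23.3% of all genes called in either direction. Their median log2 fold change was 2.09, 1.98 and 2.77, or 1.31, 1.76 and 1.78 when genes with a group at this limit enter with their bound, against 0.02, 0.01 and 0.09 over all genes. The 10 tested include *BCL2L10*, which passed the filter on low counts only through hypoxia libraries, so that its place among them favours a rise. *BCL2L15* failed the filter and is not counted. It had 10, 5 and 6 counts in sgXIST7 in normoxia and 1, 0 and 0 in hypoxia. The mitophagy receptors *BNIP3* and *BNIP3L*, known targets of hypoxia-inducible factors, rose in each clone type. *BNIP3* went from means of 62.3, 84.3 and 80.4 CPM to 703, 918 and 689 CPM (log2 fold change 3.50, 3.44 and 3.10, highest adjusted p = 2.6e-09). *BNIP3L* went from 53.3, 46.9 and 23.4 CPM to 966, 1395 and 781 CPM (4.18, 4.90 and 5.06, highest adjusted p = 4.7e-08).

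*BIK*, a BH3-only gene, rose by log2 values of 2.67, 3.04 and 3.39 (highest adjusted p = 2.9e-05), and *BOK*, a relative of the effectors, by 1.51, 1.94 and 1.29 (highest adjusted p = 2.8e-06). The BH3-only gene *BMF* was at 64, 118 and 5 counts in sgControl hypoxia, 75, 41 and 8 in sgXIST7 and 175, 267 and 21 in sgXIST9, against 3 to 16 counts in normoxia. Replicate 3 was the lowest in each hypoxia group for *BMF*. It was called in sgControl (2.89, adjusted p = 0.0093) and sgXIST9 (4.78, adjusted p = 0.00022), and in sgXIST7 the value was 2.02 (adjusted p = 0.041). Without the hypoxia replicates 3, *BMF* was at 3.39, 2.39 and 5.27 (highest adjusted p = 4e-05) and *BIK* at 3.02, 3.20 and 3.63 (highest adjusted p = 2.5e-08). *BCL2L10* and *HRK* had few counts. *BCL2L10* was at or under 3 counts in each normoxia library. Its observed mean in hypoxia was 2.16-, 2.99- and 2.07-fold above the level of 3 counts in normoxia in sgControl, sgXIST7 and sgXIST9, although sgControl hypoxia replicate 3 held 0 counts. *HRK* was at least 4.81-fold higher in hypoxia in sgXIST9.

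The pro-survival relative *BCL2L2* (BCL-w) was up-regulated in sgXIST7 (log2 fold change 1.17, SE 0.15, adjusted p = 4.2e-06) and rose by less in sgControl (0.44, SE 0.15, adjusted p = 0.02) and sgXIST9 (0.60, SE 0.15, adjusted p = 0.0025). *BCL2L12* was down-regulated in sgXIST7 (−1.12, adjusted p = 7.7e-06) and sgXIST9 (−1.27, adjusted p = 2.5e-06) and fell in sgControl (−0.73, adjusted p = 0.00063).

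Downstream of the mitochondria, 14 genes of the apoptosome, caspases and their inhibitors were tested. Of these, 3, 3 and 3 were up-regulated and 2, 2 and 3 down-regulated in hypoxia in sgControl, sgXIST7 and sgXIST9, with a median log2 fold change of 0.11, 0.03 and 0.07, and the share of all genes called in either direction was 19.7%, 27.3% and 23.3%. *APAF1*, the scaffold of the apoptosome, rose by 1.39, 1.93 and 1.60, and the inhibitors of apoptosis *BIRC2* by 1.41, 1.32 and 1.39 and *BIRC3* by 4.41, 4.22 and 4.76 (highest adjusted p = 9.3e-07 over these 3 genes). *BIRC5*, which encodes survivin and peaks in mitosis, fell, with log2 fold changes of −1.21, −2.21 and −2.67 (highest adjusted p = 7.2e-05). *AIFM1*, which encodes a mitochondrial flavoprotein, was at −1.02, −1.21 and −0.89 (highest adjusted p = 1.3e-07) and was called in sgControl and sgXIST7. In sgXIST9, *CYCS*, which encodes cytochrome c (−1.02, adjusted p = 8.1e-05), and *ENDOG*, a mitochondrial nuclease (−1.05, adjusted p = 0.00022), were also down-regulated.

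**Figure D5:**
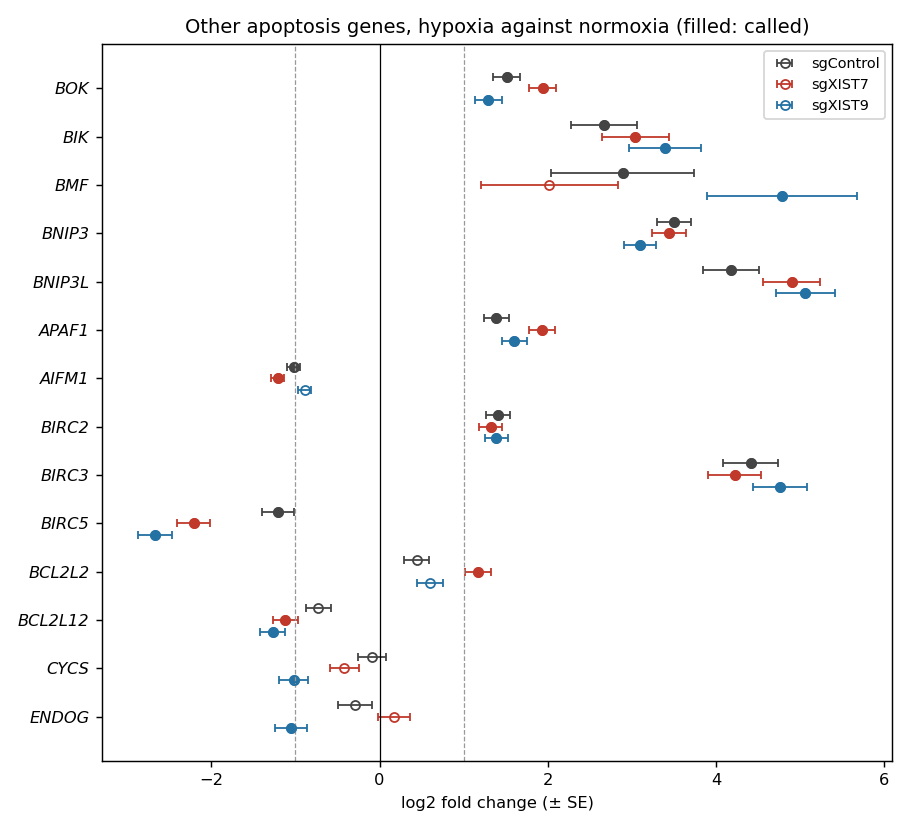
Log2 fold change of hypoxia against normoxia in each clone type for the relatives of BCL2 and the apoptosome, caspase and inhibitor genes that were called in at least 1 comparison, with bars for ± SE and filled points for called genes. *BNIP3*, *BNIP3L*, *BIK*, *BIRC3* and *BOK* lie above 1 and *BIRC5* below −1 in all 3 clone types; *BCL2L10* and *HRK*, with groups at the detection limit, are not drawn.

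Of 12 transcription factors known to act on members, 4, 6 and 4 were up-regulated and 2, 2 and 1 down-regulated in hypoxia in sgControl, sgXIST7 and sgXIST9, beside 19.7%, 27.3% and 23.3% of all genes called in either direction. Their median log2 fold change was 0.43, 0.57 and 0.33. *FOXO3*, whose protein can activate *BBC3* and *BCL2L11*, rose by 1.60, 2.20 and 1.48 (highest adjusted p = 1e-07), and *DDIT3*, which encodes the stress factor CHOP, by 1.75, 2.46 and 1.27 (highest adjusted p = 0.00027). *E2F1* fell, with log2 fold changes of −1.10, −2.50 and −2.02 (highest adjusted p = 3.1e-05), and *TP73* was down-regulated in sgControl (−1.18, adjusted p = 3.6e-05) and sgXIST7 (−1.12, adjusted p = 4.2e-05). *EPAS1*, which encodes HIF-2α, rose by 2.29, 2.93 and 1.25 (highest adjusted p = 3.1e-05). *RELA*, an NF-κB subunit, was up-regulated in sgControl (1.19, adjusted p = 3.5e-05) and sgXIST7 (1.34, adjusted p = 6e-06), *FOXO1* in sgXIST7 (2.42, adjusted p = 6.8e-06) and sgXIST9 (1.76, adjusted p = 0.00014), and *ATF4* in sgXIST7 (1.06, adjusted p = 0.0011). *HIF1A* was higher in sgXIST7 than in sgControl in normoxia (1.62, SE 0.09, adjusted p = 6.3e-10) and in hypoxia (1.32, SE 0.09, adjusted p = 7.6e-09). Whether any of these bears on the levels of the members was not tested.

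As a description over the 18 libraries, which share the hypoxia and clone differences, the genes with the pattern of log2 CPM most like that of *BBC3* were *YPEL2*, *GAB1* and *SCN4B* (Pearson r of 0.972, 0.957 and 0.955). For *BAK1* they were *MRM3*, *NOP56* and *PPIF* (0.979, 0.977 and 0.974), and for *BCL2*, whose counts were few, *IMPDH1*, *TMUB1* and *PRKAG2* (0.926, 0.919 and 0.917).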

How the data were processed

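The authors deposited raw counts per gene for each library, not normalized, made from TruSeq Stranded Total RNA libraries. Per the authors' methods and labels, Trimmomatic trimmed the reads, HISAT2 placed them on hg38 and featureCounts counted them, and the authors tested with DESeq2. The versions and the strand setting are not given in the sources used here. Of 28279 lines, 2 broken records were left out. Groups were taken from the sample titles.

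Counts were tested with edgeR 4.0.16 (R 4.3.3) in 1 quasi-likelihood fit of the 6 groups (glmQLFit, robust, then glmQLFTest), with TMM factors, filterByExpr (minimum count 10, minimum total 15) and a prior count of 0.125. Two-sided p-values were adjusted over 14938 genes. The SE of a log2 fold change was derived from the test, as its size divided by the square root of the F statistic. The 11 comparisons were hypoxia against normoxia in each clone type, each pair of clone types in normoxia and in hypoxia, and the difference of each KD response from that of sgControl. DESeq2 1.42.0 was the main alternative, beside other scalings, filters, left-out libraries and a replicate block. A group with 3 counts or fewer in each library was taken as at the detection limit, which covers counting error only, and 3 counts were set per library for bounds. A bound written as at least a fold takes the mean of the other group as observed, without its counting error. Levels between genes were compared per kb of the deposited exon length. The labels number the replicates but state no pairing. By the lowest value over the replicates, same-numbered libraries deviated together most in 2 comparisons, sgControl and sgXIST7 in normoxia (r 0.148 to 0.379) and sgControl and sgXIST9 in hypoxia (0.197 to 0.566). The other pairs of hypoxia groups spanned 0.018 to 0.38 (sgControl and sgXIST7) and −0.068 to 0.492 (sgXIST7 and sgXIST9). In all pairs of hypoxia groups the highest value was that of replicate 3. In sgControl normoxia and hypoxia r was 0.093 to 0.109. Libraries with different numbers were not compared, so a pairing is not established, and the main fit uses none. Scripts were tested on simulated data.

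Members and gene lists were chosen with earlier results of these data known. Named are the 10 members, listed genes called in at least 1 comparison, the 3 genes most like each called member, and *XIST*. Markers are given as a check of the cells. The result of 1 listed gene is not reported here.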

Additional observations from a re-analysis of the deposited data

Results flagged for a closer look

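In 5 cases the response to hypoxia differed between a KD clone type and sgControl with an adjusted p under 0.05, by the interaction contrast of the same edgeR fit, among the 10 members and those of their relatives and of the apoptosome, caspase and inhibitor genes that were called in at least 1 comparison. Over all tested genes, 9.39% passed 0.05 in this contrast for sgXIST7 and 5.27% for sgXIST9. With uncalled genes included, 1 of 10 members, 1 of 10 tested relatives and 2 of the 14 other genes passed it in sgXIST7. In sgXIST9 these counts were 0, 0 and 2. In sgXIST7, *BAK1* differed by −0.99 on the log2 scale (adjusted p = 0.038), with 3 of 3 hypoxia libraries of sgXIST7 and 1 of 3 of sgControl below all normoxia libraries of their clone type. *BCL2L2* differed by 0.73 (adjusted p = 0.04) and *BIRC5* by −1.0 (adjusted p = 0.032). In sgXIST9, *BIRC5* differed by −1.46 (adjusted p = 0.0061) and *CYCS* by −0.92 (adjusted p = 0.032). *BIRC5* means went from 117 to 50.6 CPM in sgControl, 115 to 25.1 CPM in sgXIST7 and 133 to 20.9 CPM in sgXIST9. *CYCS* means went from 276 to 259 CPM in sgControl and from 309 to 153 CPM in sgXIST9.

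Without sgControl hypoxia replicate 3, the values in sgXIST7 were −1.19 for *BAK1*, 0.91 for *BCL2L2* and −1.20 for *BIRC5*, and in sgXIST9 −1.66 for *BIRC5* and −1.04 for *CYCS*, each with an adjusted p of at most 0.0055. The *BAK1* difference did not pass 0.05 in 14 of the fits that left out 1 library (adjusted p up to 0.1). In a fit of only the groups compared, 0 members passed 0.05 for the response of sgXIST7.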

How the results depend on the processing

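Of 34 fold changes of members past an adjusted p of 0.05, 7 were called. Each was tested in up to 28 alternatives, the called ones against both thresholds of a call and the others against an adjusted p of 0.05. On that rule 0 reversed, 12 kept their standing in all, and 122 of 944 alternative values lost it. The alternative that reads the main fit at an adjusted p under 0.05 could lose none by construction, and its values are among the 944. The counts of called members that moved by over 1.5 times were as follows. For hypoxia in sgControl the count was 2 without replicate 3 of all 3 hypoxia groups, and 0 to 2 with 1 library left out. In sgXIST7 it was 1 under total-count scaling and 1 without the hypoxia replicates 3 (1 to 3 with 1 library left out), and in sgXIST9 1 to 2 with 1 library left out. For sgXIST7 against sgControl in normoxia it was 0 with DESeq2, without a filter, with a mean CPM of at least 1, which drops *BCL2*, and in a fit of the groups compared (0 to 1), and in hypoxia it was 1 under total-count scaling and 1 at an adjusted p under 0.05 (0 to 1). For sgXIST9 against sgControl it was 2 in normoxia at an adjusted p under 0.05 (1 in each fit with a library left out) and 1 in hypoxia without the hypoxia replicates 3 (0 to 1). For sgXIST7 against sgXIST9 in normoxia it was 2 with DESeq2, in a fit of the groups compared, at an adjusted p under 0.05 and without the hypoxia replicates 3, 2 with the replicate block and 0 with a mean CPM of at least 1 (1 to 2). In hypoxia it was 0 with a mean CPM of at least 1 and in a fit of the groups compared (1 in each fit with a library left out). For the difference in response of sgXIST7 it was 2 without the hypoxia replicates 3 (0 to 2 with 1 library left out), and for that of sgXIST9 it was 0 in each. Apart from *BCL2L11* in sgXIST7 against sgXIST9, the replicate block changed no count of called members. The causes were not tested, except where *BCL2* is dropped.

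Total-count scaling moved the median log2 fold change of all genes in hypoxia in sgXIST7 from 0.01 to −0.23, and that of sgXIST7 against sgControl in hypoxia from −0.02 to −0.18, with shifts of −0.15 for sgXIST7 against sgXIST9 in hypoxia and −0.16 for the difference in response of sgXIST7. The counts of *BCL2* limit what can be said of it at this depth.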
